A study of Rattus norvegicus with 16 samples.

Results

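The genes described here are those of pulmonary surfactant and of the alveolar type II cell that makes it. They were chosen by gene symbol, as all probe sets annotated to Sftpa1, Sftpb, Sftpc, Sftpd, Abca3, Napsa, Pla2g1b, Lpcat1, Slc34a2 or Lamp3. Of these 10 genes, 9 were measured, by 10 probe sets, among 10411 genes with a symbol of their own on the array. Sftpa1 had 2 probe sets, the other 8 genes had 1 each, and Lamp3 was not analysed here. All 10 probe sets passed the filter on dim signals.

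Total RNA from rat lung was measured on 16 Affymetrix arrays, 4 labelled biological replicates in each of 4 groups. The groups were spontaneously hypertensive (SH) rats exposed to sulfur dioxide (SO2), SH rats exposed to air, Sprague Dawley (SD) rats exposed to SO2 and SD rats exposed to air. SH rats are inbred and develop high blood pressure, SD rats are outbred, and the series title offers SH rats as a model for airway disease due to SO2, an irritant gas. The SO2 dose, how long and when the rats were exposed and sampled, and their age are not stated in the labels used here.

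Type II cells line the alveolus among the flat type I cells and secrete surfactant, a film of phospholipid and protein that lowers surface tension and keeps the alveolus open. The lipid is assembled and stored in lamellar bodies, where the hydrophobic proteins SP-B and SP-C are processed, and is then released by exocytosis. The collectins SP-A and SP-D, which bind microbes and regulate surfactant, are secreted as large water-soluble proteins. In rodents, the transcription factor Nkx2-1 drives many of these genes together with forkhead factors of the Foxa family.

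Because the members may share such regulators, their promoters were searched for a core motif of Nkx2-1, CTCAAG, and one of forkhead factors, CAAACA, each on both strands. RefSeq promoters of build GRCr8, from 250 bases before to 50 after the annotated start, were held for 7 of the 10 genes, and Sftpc, Sftpd and Napsa had no entry. For each gene 1 start was used, the first listed. The windows of Pla2g1b, Slc34a2 and Lamp3 lie inside the annotated span of the gene, and any start farther upstream was not searched. The promoters of 4 genes around which the results below turn, for a strain difference (Sftpa1), for correlations with other members (Sftpb) and for the largest differences with SO2, none of them called (Lpcat1 and Pla2g1b), read as follows, 5′ to 3′ along the gene's own strand, with capitals marking matches to either motif. They lie at chr16:17042014-17042313 on the + strand (Sftpa1), chr4:105917338-105917637 on the + strand (Sftpb), chr1:31644897-31645196 on the - strand (Lpcat1) and chr12:46812604-46812903 on the - strand (Pla2g1b).
Sftpa1: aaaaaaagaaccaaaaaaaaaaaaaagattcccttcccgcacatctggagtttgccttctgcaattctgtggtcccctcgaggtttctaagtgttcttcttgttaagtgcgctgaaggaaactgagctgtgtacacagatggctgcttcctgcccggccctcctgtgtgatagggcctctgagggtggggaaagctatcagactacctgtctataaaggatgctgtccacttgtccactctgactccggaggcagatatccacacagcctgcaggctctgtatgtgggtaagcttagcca
Sftpb: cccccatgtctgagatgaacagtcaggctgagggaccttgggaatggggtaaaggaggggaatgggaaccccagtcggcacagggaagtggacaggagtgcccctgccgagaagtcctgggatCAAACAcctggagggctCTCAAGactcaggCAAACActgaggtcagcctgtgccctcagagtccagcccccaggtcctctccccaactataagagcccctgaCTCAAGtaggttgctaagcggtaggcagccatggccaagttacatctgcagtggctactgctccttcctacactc
Lpcat1: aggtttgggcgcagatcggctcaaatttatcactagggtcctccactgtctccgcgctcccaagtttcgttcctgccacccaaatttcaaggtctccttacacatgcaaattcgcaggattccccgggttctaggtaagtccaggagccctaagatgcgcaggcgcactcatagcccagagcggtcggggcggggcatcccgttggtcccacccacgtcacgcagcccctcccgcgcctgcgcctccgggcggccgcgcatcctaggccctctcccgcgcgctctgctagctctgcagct
Pla2g1b: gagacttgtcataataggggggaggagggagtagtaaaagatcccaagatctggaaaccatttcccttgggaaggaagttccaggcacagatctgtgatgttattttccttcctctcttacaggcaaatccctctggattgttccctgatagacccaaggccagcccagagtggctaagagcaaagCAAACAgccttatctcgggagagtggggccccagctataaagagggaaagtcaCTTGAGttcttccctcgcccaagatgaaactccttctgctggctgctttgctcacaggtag
The Sftpb promoter held CTCAAG at 2 positions, beginning at -110 and -25 from the start, and CAAACA at 2, beginning at -127 and -97. The Pla2g1b promoter held CTCAAG on the opposite strand, read as CTTGAG, at -11 and CAAACA at -64. CAAACA also occurred once in the Lamp3 promoter, at -143, and neither set of letters occurred in those of Sftpa1, Abca3, Lpcat1 and Slc34a2. Among 33469 rat promoters of the same length, 15.8% held CTCAAG and 17.8% held CAAACA, so the matches are a description of these windows.

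The deposited signals are linear intensities, 1 per probe set and array, and for the changes a probe set's signal is compared only with its own signal on other arrays. The ratio of the Sftpa1 probe sets, ranks on an array and summed signals of lists set different probe sets together. In the sums the brightest probe sets weigh most. Changes are differences of log2(signal + 16), SO2 minus air or SH minus SD, with the standard error (SE). Adjusted p-values come from limma over all 11106 probe sets tested, with calls made at an adjusted p under 0.05. They measure the spread between these samples, and in whole lung fewer cells of a type and less RNA per cell cannot be told apart. Array medians ranged from 250.2 to 281.8. The ratio of the actin 3′ to the 5′ control probe set, a sign of RNA quality, averaged 2.14 ± 0.770 in SH SO2, 1.78 ± 0.400 in SH air, 1.91 ± 0.689 in SD SO2 and 1.53 ± 0.161 in SD air (standard deviation, n = 4 each).

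One array went against its label. Terf2ip, a telomere-binding protein gene that separates the strains and was chosen after its values were seen, measured 693.8 on the array labelled SD air replicate 2. It measured 276.2 to 442.5 in SH SO2, 424.8 to 733.2 in SH air, 2048.4 to 3167.3 in SD SO2 and 1982.2 to 2363.4 on the other 3 SD air arrays. Genes called between the strains below were mixed on that array. Sftpa1 by 1369107_at (10815.9) and Atp6v0a1 (414.4) lay among the SH arrays. P2ry2 (416.1) and Cyp2f4 (988.3) lay above all SH arrays, which reached 381.5 and 898.0. Whether the label is wrong was not tested, and results that involve SD air rats are also given without that array.

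The members are themselves the markers of type II cells, and all 9 measured kept their place above the filter on dim signals, with 1615.9, a Pla2g1b value, as the lowest member signal on any array. Their spread is given here over all 16 arrays, which mixes differences within and between groups. Per probe set, the highest of the 16 signals was 1.46 (Slc34a2) to 2.05 (Pla2g1b) times the lowest, with 1 exception, Lpcat1, at 3.57 times. The plot of signals by array shows that most groups overlap and that the 1 Sftpa1 probe set with a called difference is higher in SH rats. Lpcat1 and Pla2g1b, lower in SO2 without overlap in SH rats, were not called.

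**Figure D1:**
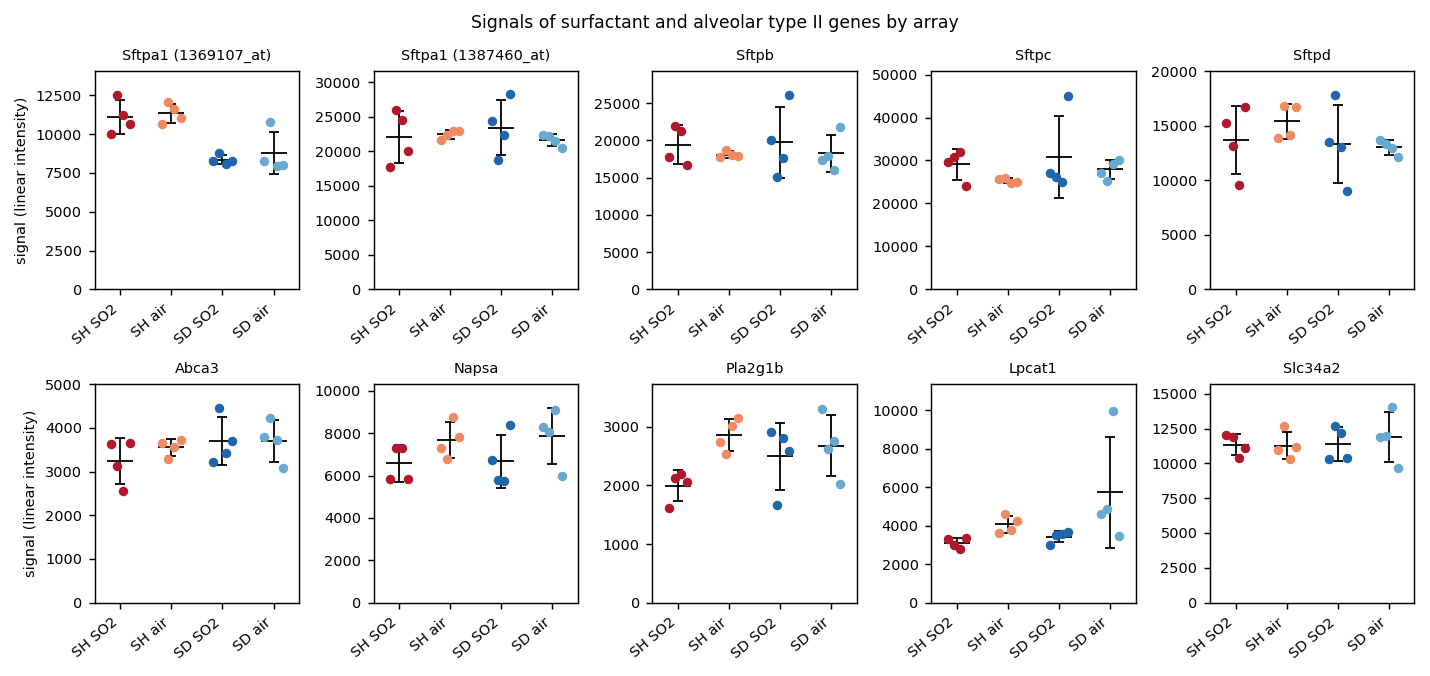
Signals of the 10 member probe sets by array, as linear intensity from 0. Each point is 1 array, the long bar is the mean of 4 and the short bars are ± 1 standard deviation; Sftpa1 by probe set 1369107_at lies between 10007.9 and 12558.4 in SH rats and, apart from 1 array at 10815.9, between 7978.9 and 8787.9 in SD rats.

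The one called difference in these genes lay between the strains and in 1 of the 2 probe sets of Sftpa1, the gene of the collectin SP-A (Entrez 24773, chr16:17042264-17045770 in GRCr8). Probe set 1369107_at measured 10007.9, 12558.4, 11235.6 and 10666.6 in SH SO2 and 10662.1, 12058.2, 11600.7 and 11073.5 in SH air. It measured 8287.9, 8787.9, 8084.7 and 8264.4 in SD SO2 and 8301.9, 10815.9, 7978.9 and 8004.9 in SD air. In SO2 all 4 SH arrays were above all 4 SD arrays, as in 2.81% of all probe sets, whereas in air the array labelled SD air replicate 2, at 10815.9, exceeded the lowest SH array.

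Averaged over both exposures, this probe set was 0.39 higher in SH than in SD rats on the log2 scale (SE 0.0717, 95% interval 0.24 to 0.54), a fold of 1.31 (limma, adjusted p = 0.00525). This was 1 of 10 member probe sets called, against 172 of 11106 probe sets in all, or 1.55% (0.729% higher and 0.819% lower). Within 1 exposure the difference was similar in size and was not called. It was 0.41 in SO2 (adjusted p = 0.0733), where 0 of 10 members were called against a background of 0.819% (0.405% higher and 0.414% lower), and 0.38 in air (adjusted p = 0.269), where 0 members and 0% of all probe sets were. By an unadjusted p under 0.05 it was the 1 member probe set in each exposure, against 10.2% of all in SO2 and 6.42% in air. With the array labelled SD air replicate 2 left out, the averaged difference was 0.45 (adjusted p = 0.000317, background 2.54%). It was then called in SO2 (0.41, adjusted p = 0.0221, background 1.04%) and in air (0.49, adjusted p = 0.0134, background 0.81%) as well. The 8 SH arrays, from 10007.9 to 12558.4, then lay above the other 7 SD arrays, from 7978.9 to 8787.9. The array left out was the 1 SD array that overlapped them, so this separation follows from leaving it out. The share of all probe sets so separated was not counted. The averaged call was lost once the number that opens each sample title entered as a covariate (0.37, adjusted p = 0.0585) and when both Sftpa1 probe sets were averaged (0.19, adjusted p = 0.234), while SO2 left the signal with no called change in either strain (-0.033 in SH and -0.059 in SD).

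The second Sftpa1 probe set, 1387460_at, did not show this difference. Its signals were 17799.8, 25963.6, 24488.5 and 20065.9 in SH SO2 and 21654.7, 22318.8, 22879.3 and 22984.2 in SH air. They were 24432.4, 18752.6, 22335.5 and 28294.7 in SD SO2 and 22310.0, 22163.4, 21557.4 and 20436.8 in SD air. The strains overlapped throughout in SO2, and their averaged difference was -0.016 (95% interval -0.19 to 0.16, adjusted p = 0.976), an interval that does not reach the lower bound of 0.24 of the other probe set. The annotation traces both probe sets to the same transcript sequence.

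The 2 probe sets were therefore set against each other within each array. The signal of 1369107_at divided by that of 1387460_at was 0.562, 0.484, 0.459 and 0.532 in SH SO2 and 0.492, 0.540, 0.507 and 0.482 in SH air. It was 0.339, 0.469, 0.362 and 0.292 in SD SO2 and 0.372, 0.488, 0.370 and 0.392 in SD air. In both exposures the highest SD array overlapped the SH arrays, and the other 3 SD arrays lay below them all. The group means were 0.509 ± 0.0466 in SH SO2, 0.505 ± 0.0255 in SH air, 0.365 ± 0.0747 in SD SO2 and 0.405 ± 0.0559 in SD air (standard deviation, n = 4).

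On the log2 scale this ratio was 0.41 higher in SH than in SD rats over both exposures, 0.49 in SO2 and 0.33 in air. With the array labelled SD air replicate 2 left out it was 0.46 higher over both exposures and 0.42 in air. The ratio was formed after the probe sets had been seen to disagree, and its difference is that between their 2 strain differences, so it is given as a description with no test. The arrays with the 2 highest actin ratios, SH SO2 replicate 1 (3.12) and SD SO2 replicate 2 (2.94), had the highest probe set ratios of their groups (0.562 and 0.469). The part of RNA quality in the ratio was not tested, nor was which probe set follows the amount of Sftpa1 RNA.

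**Figure D2:**
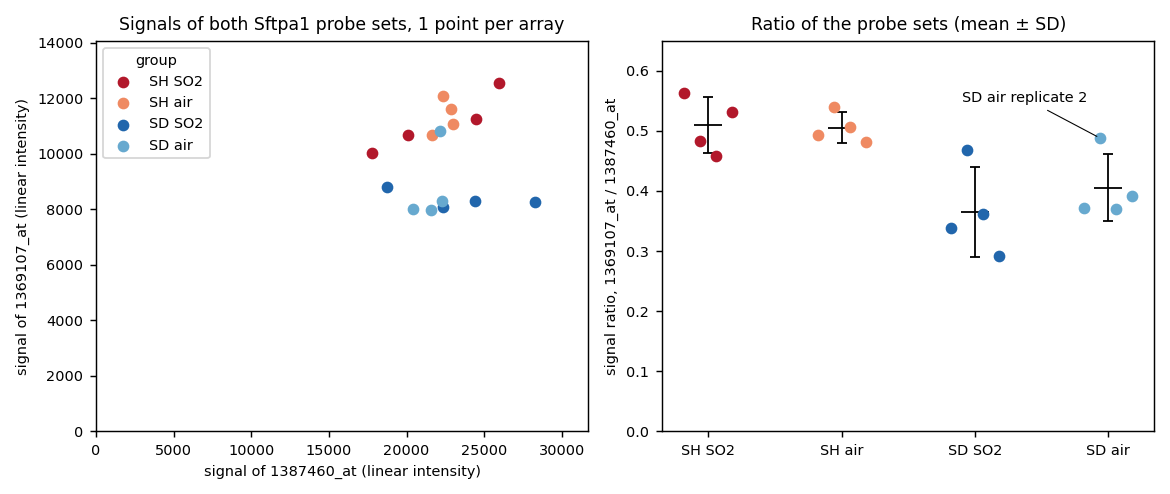
Left, signal of the 2 Sftpa1 probe sets on each array, as linear intensity; right, their ratio by group, with the mean and ± 1 standard deviation of 4 arrays. Apart from the array labelled SD air replicate 2, the SD arrays lie lower on the vertical axis over an overlapping horizontal range. By ratio, that array (0.488) and SD SO2 replicate 2 (0.469) lie among the SH arrays.

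Sftpd encodes SP-D, the other collectin, and lies near Sftpa1 (Entrez 25350, chr16:17080575-17093047 in GRCr8). Its signals were 15223.3, 13128.7, 9577.4 and 16763.8 in SH SO2 and 13844.9, 16862.4, 14188.2 and 16731.5 in SH air. They were 13522.0, 17799.9, 13038.0 and 9042.5 in SD SO2 and 13682.3, 13332.4, 12998.9 and 12100.0 in SD air. In air all SH arrays lay above all SD arrays, by a margin of 13844.9 in SH against 13682.3 in SD, which 1.95% of all probe sets did in that direction. The difference in air, 0.24 (SE 0.170), had an adjusted p of 0.866. In SO2 the strains overlapped fully, with a difference of 0.044, and SO2 minus air was -0.20 in SH and -0.0039 in SD rats (adjusted p = 0.951 and 0.998). The SH value was -0.036 without SH SO2 replicate 3, the array at 9577.4, and -0.019 once the title number was a covariate.

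The hydrophobic surfactant proteins did not pass any comparison. Sftpc, the gene of SP-C, a peptide found in type II cells (chr15:52006274-52009324), averaged 29081 ± 3510 in SH SO2, 25301 ± 582 in SH air, 30868 ± 9537 in SD SO2 and 27925 ± 2167 in SD air (standard deviation, n = 4). Its arrays were 29634.6, 30774.0, 31910.8 and 24003.9 in SH SO2, against 25630.5, 25946.9, 24722.1 and 24905.7 in SH air. They were 27182.1, 26171.8, 25005.3 and 45111.2 in SD SO2, against 27203.2, 25212.6, 29248.1 and 30035.8 in SD air. In SH rats 3 SO2 arrays were above all air arrays and the fourth below them, and in SD rats 1 SO2 array stood far above the rest. SO2 minus air was 0.19 in SH (SE 0.142, adjusted p = 0.950) and 0.10 in SD rats (adjusted p = 0.891), and the SD value was -0.094 without SD SO2 replicate 4.

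That array was also high for some other lung genes, though not for Sftpd, which at 9042.5 had its lowest signal of the 16 arrays there. The members Sftpb (26122.2) and Sftpa1 by 1387460_at (28294.7) had their highest signals on it. So did Ager, a type I cell gene, at 19344 against 10829.3 to 13058.8 on the other 3 SD SO2 arrays. On SD SO2 replicate 4, Scgb1a1, the club cell secretoglobin, measured 36624.9, against 24385.8 to 25862.8 on the other 3 SD SO2 arrays, and Lyz2, a lysozyme, measured 43064.6, against 27632.2 to 30311.1. Its summed signals of 5 club cell genes (57371.6, with Scgb1a1 among them) and of 12 type I cell genes (72523.7, with Ager among them) were the highest of the 16 arrays. These sums are thus not separate from those single genes. Their part in the Sftpc value was not tested.

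Sftpb, the gene of SP-B (chr4:105917495-105926631), whose promoter is printed above, measured 17739.1, 21932.0, 21311.6 and 16648.7 in SH SO2 and 17695.2, 18695.4, 18003.3 and 17836.9 in SH air. It measured 20047.9, 15042.2, 17610.8 and 26122.2 in SD SO2 and 17306.5, 17939.9, 15965.0 and 21780.6 in SD air. In both strains the SO2 arrays spread to both sides of the air arrays. SO2 minus air was 0.094 in SH and 0.090 in SD rats (SE 0.138 each, adjusted p = 0.967 and 0.904), and SH minus SD averaged over exposures was -0.0038 (95% interval -0.21 to 0.20).

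The member with the largest difference between SO2 and air averaged over strains was Lpcat1, which makes the saturated phosphatidylcholine of surfactant by acylating its lyso form (Entrez 361467, chr1:31594621-31644946). That difference was not called. Its signals were 3296.2, 3022.8, 2796.3 and 3343.2 in SH SO2, against 3597.4, 4609.3, 3799.1 and 4260.0 in SH air. They were 2993.6, 3502.4, 3554.7 and 3681.7 in SD SO2, against 4606.1, 4874.4, 9985.4 and 3482.8 in SD air. In SH rats every SO2 array was below every air array. In SD rats 1 air array, at 3482.8, lay among the SO2 arrays and another, at 9985.4, lay far above all others.

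SO2 minus air for Lpcat1 was -0.38 in SH (SE 0.206, 95% interval -0.81 to 0.050, adjusted p = 0.950) and -0.63 in SD rats (SE 0.206, 95% interval -1.05 to -0.20, adjusted p = 0.471). Averaged over strains it was -0.50, a fold of 0.706 (SE 0.145, 95% interval -0.81 to -0.20, unadjusted p = 0.00259, adjusted p = 0.356). Without SD air replicate 3, the array at 9985.4, the SD value was -0.32 and the averaged value -0.35. Leaving out SD air replicate 2 as labelled, the SD value was -0.66 (adjusted p = 0.482).

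Pla2g1b encodes a secreted phospholipase A2, an enzyme that cleaves phospholipids (Entrez 29526, chr12:46802932-46814511). It measured 1615.9, 2130.5, 2192.8 and 2054.7 in SH SO2, against 2746.9, 2532.0, 3013.0 and 3155.8 in SH air. It measured 2920.7, 1671.7, 2813.3 and 2589.2 in SD SO2, against 3309.5, 2622.6, 2754.3 and 2030.2 in SD air. The SH groups did not overlap, whereas the SD groups did. SO2 minus air was -0.52 in SH rats, a fold of 0.698 (SE 0.166, 95% interval -0.87 to -0.17, unadjusted p = 0.00550, adjusted p = 0.911), and -0.11 in SD rats (adjusted p = 0.902).

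The difference between the 2 Pla2g1b effects, SH minus SD, was -0.41 (95% interval -0.90 to 0.083, adjusted p = 0.984), so a strain difference in the response was not shown. With the actin ratio and the 10th percentile of each array's signal as covariates the values were -0.32 in SH and 0.067 in SD rats. Napsa, the aspartic protease that trims the SP-B precursor (chr1:104200967-104213603), was the third member with an unadjusted p under 0.05 when averaged over strains, at -0.23 (unadjusted p = 0.0309, adjusted p = 0.543). It averaged 6568 ± 860 in SH SO2, 7663 ± 840 in SH air, 6664 ± 1235 in SD SO2 and 7867 ± 1328 in SD air (standard deviation, n = 4), and exposures overlapped in both strains.

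The lipid transporter Abca3, which loads phospholipid into lamellar bodies (chr10:13886948-13944286), ranged from 2554.7 to 3653.3 with a median of 3379.7 in SH SO2, and from 3289.8 to 3718.2 with a median of 3602.1 in SH air. It ranged from 3209.3 to 4455.9 with a median of 3554.8 in SD SO2, and from 3071.1 to 4225.8 with a median of 3751.4 in SD air. The phosphate transporter Slc34a2 (chr14:62123313-62153020) ranged from 10362.3 to 12019.1 in SH SO2, 10327.7 to 12647.2 in SH air, 10316.7 to 12707.3 in SD SO2 and 9640.8 to 14052.8 in SD air. All 4 groups overlapped for both genes. SO2 minus air lay between -0.14 (Abca3 in SH) and 0.011 (Slc34a2 in SH), and the widest bounds of their 95% intervals were -0.41 and 0.27 (Abca3).

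Across the members, 0 of 10 probe sets passed limma's threshold for SO2 against air in SH rats, in SD rats, averaged over strains or for the difference of the effects. The background was also 0 of 11106, or 0%, in each of these. At an unadjusted p under 0.05 the counts were 1 of 10 in SH (Pla2g1b), against 4.78% of all probe sets, 1 in SD (Lpcat1), against 8.29%, 3 averaged over strains, against 8.45%, and 0 for the difference, against 4.65%. In SH rats 2 member probe sets, Lpcat1 and Pla2g1b, did not overlap between exposures, both lower in SO2, against 4.15% of all probe sets in either direction and 2.01% in that one. In SD rats none did, against 3.54% of all.

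By gene, 3 of 9 members were above and 6 below 0 for SO2 minus air in SH rats, with a median of -0.14 beside 0.017 over all probe sets. The split was also 3 and 6 in SD rats, with a median of -0.0044 beside 0.017. Leaving out 1 array took the SH median to values from -0.17 to -0.036 (the last without SH SO2 replicate 3), and the title number as a covariate took it to -0.039. The SD median ran from -0.098 (without SD SO2 replicate 2) to 0.0092 (without SD air replicate 1) and so changed sign. The intervals show how much these arrays could resolve, since within 1 strain the 95% interval reached 0.212 to 0.430 to either side. For SH minus SD averaged over exposures, with Sftpa1 taken by its brighter probe set, 1 of 9 genes (Sftpd) was above 0 and 8 were below, with a median of -0.035 beside 0.0013 over all probe sets. With 1 array left out that median ran from -0.082 (SD air replicate 4) to 0.0040 (SD SO2 replicate 4). At an unadjusted p under 0.05, 1 of 10 member probe sets differed between the strains on average, against 11.7% of all probe sets.

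**Figure D3:**
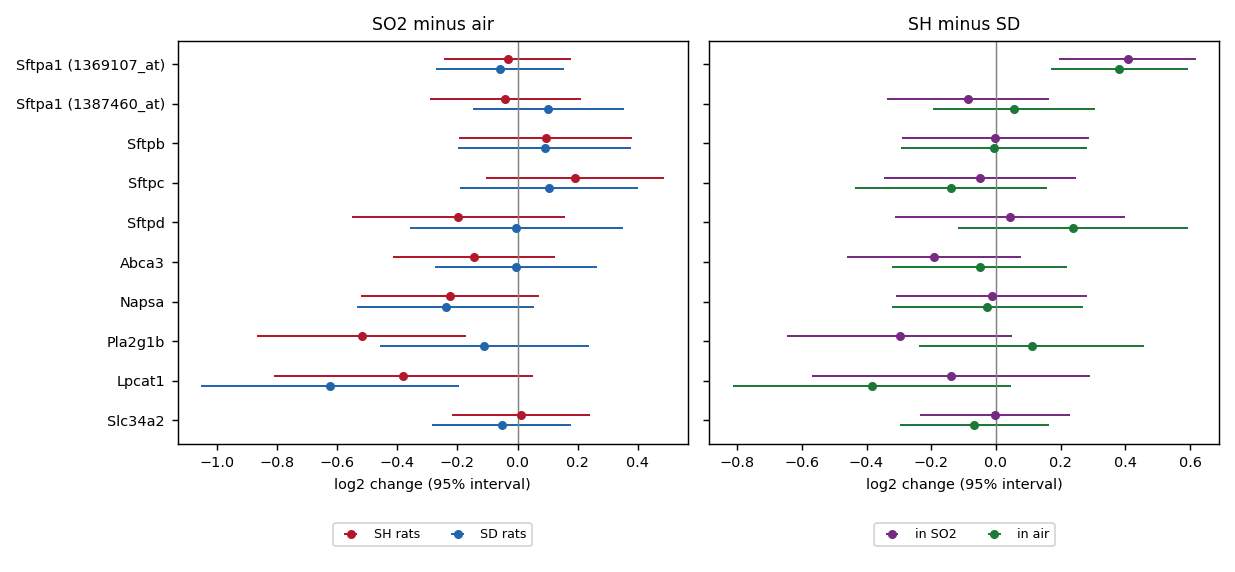
Log2 changes of the 10 member probe sets with 95% intervals from limma, SO2 minus air in each strain (left) and SH minus SD in each exposure (right). For Sftpa1 by 1369107_at both strain intervals lie above 0, and for SO2 the intervals of Pla2g1b in SH rats (-0.87 to -0.17) and Lpcat1 in SD rats (-1.05 to -0.20) lie below 0 before adjustment.

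The surfactant genes did not vary together as 1 block across the 16 arrays. Among the 45 pairs of member probe sets, Pearson's r ran from -0.78 to 0.78 with a median of 0.021, and 24 pairs were above 0. After Benjamini-Hochberg adjustment over the 45 pairs, 7 had a permutation p under 0.05 by Pearson's r, and none by Spearman's rho. Sftpb and Sftpc varied together (r = 0.78, permutation p = 0.00081, adjusted p = 0.0126, rho = 0.51), with r = 0.82 within SH and 0.79 within SD rats. Leaving out the 2 arrays farthest from the Sftpb median took r to 0.48. For each pair of members the median used is that of the gene listed first at the outset. Outlying arrays of the other gene were not looked for.

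Sftpd varied against both: r was -0.76 with Sftpb (adjusted permutation p = 0.0126, rho = -0.51) and -0.78 with Sftpc (adjusted permutation p = 0.0126, rho = -0.63). Without the 2 farthest arrays these were -0.64 and -0.47. The brighter Sftpa1 probe set followed Sftpb (r = 0.73, adjusted permutation p = 0.0177, rho = 0.69, and 0.67 without the 2 farthest arrays) and opposed Sftpd (r = -0.65, adjusted permutation p = 0.0439, rho = -0.46, and -0.49). Napsa and Pla2g1b varied together (r = 0.66, adjusted permutation p = 0.0439, rho = 0.54, and 0.74 without the 2 farthest arrays), and so did Lpcat1 and Slc34a2 (r = 0.64, adjusted permutation p = 0.0439, rho = 0.43, and 0.33).

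Some of the members also varied with the actin ratio. Over the 10 probe sets, Pla2g1b was lower where the ratio was high (r = -0.70, permutation p = 0.00318, adjusted p = 0.0318, rho = -0.52, adjusted p = 0.134), and so was Sftpa1 by 1387460_at (r = -0.62, adjusted permutation p = 0.0439, rho = -0.43, adjusted p = 0.204). Sftpd was higher (r = 0.61, adjusted permutation p = 0.0439, rho = 0.60, adjusted p = 0.0829). Without the 2 arrays of the most distant ratio r was -0.29 for Pla2g1b and -0.20 for Sftpa1, so both rest on those arrays, and 0.56 for Sftpd. Within strains, Pla2g1b had r = -0.67 in SH and -0.71 in SD rats, and Sftpd 0.57 in SH and 0.61 in SD rats. Each strain holds 1 of those 2 arrays, and r within strains was not computed without them. The part of RNA quality in the opposed pairs was not tested.

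**Figure D4:**
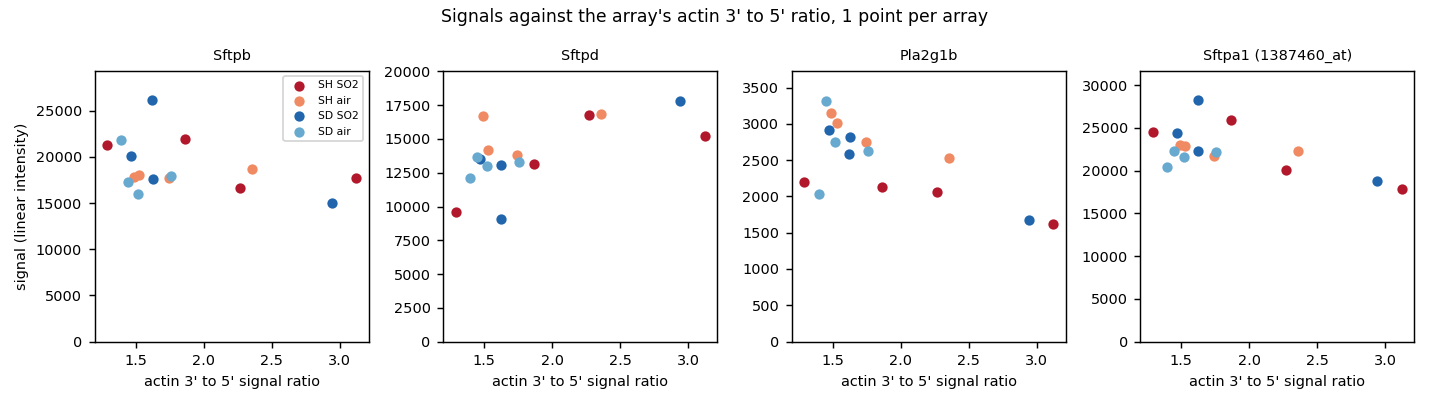
Signals of 4 member probe sets, as linear intensity, against the actin 3′ to 5′ ratio of the same array (no unit), 1 point per array. Arrays with the 2 highest ratios, SH SO2 replicate 1 (3.12) and SD SO2 replicate 2 (2.94), have the lowest Pla2g1b signals (1615.9 and 1671.7) and the 2 lowest 1387460_at signals (17799.8 and 18752.6).

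With group means removed, the 5 other genes whose log2 values followed the members' mean most closely over the 16 arrays were Myom2 (r = 0.907), Rpl7a (0.876), Hsf1 (0.876), Rabac1 (0.875) and Scpep1 (0.865). Of the members themselves, r with this mean ran from -0.20 for Sftpd to 0.80 for Napsa. The arrays share scaling and RNA quality, and the values describe likeness only.

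Other genes of surfactant biology had no called change with SO2, as was the case for all 11106 probe sets (0% called). In lists of lipid synthesis (21 genes tested), lamellar body and secretion (20), type II cell transcription factors (13) and surfactant clearance with collectin receptors (12), limma called 0 genes for SO2 in SH rats, in SD rats or on average. Fabp5, a fatty acid binding protein, had the smallest p of the lipid genes in SH rats, with 1946 ± 226 in SH SO2 and 2811 ± 353 in SH air (standard deviation, n = 4). The groups did not overlap, as in 2.01% of all probe sets in that direction, and its change of -0.53 had an adjusted p of 0.406. Over the 21 lipid synthesis genes tested, 7 were above and 14 below 0 in SH rats, with a median of -0.017, and 14 were above and 7 below 0 in SD rats, with a median of 0.075. The summed signal of the 24 lipid synthesis genes measured did not overlap between exposures in SH rats. It was 19578 to 21812.5 in SH SO2 and 21960.2 to 24629.4 in SH air. In SD rats it overlapped, at 21154.7 to 26280.4 in SD SO2 and 22565 to 23450.2 in SD air. How often such a sum separates was not counted, and the part of single genes in it was not tested.

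Klf5, a transcription factor of the lung epithelium, had the smallest p of the transcription factors. It measured 539.2, 740.7, 717.1 and 704.2 in SH SO2 and 959.8, 842.7, 1071.9 and 697.8 in SH air, and 530.1, 603.3, 543.4 and 490.8 in SD SO2 and 969.7, 1216.0, 866.7 and 612.2 in SD air. In SD rats every SO2 array was below every air array, as in 1.47% of all probe sets, and in SH rats 1 air array lay among the SO2 arrays. SO2 minus air was -0.39 in SH (adjusted p = 0.950), -0.70 in SD (adjusted p = 0.333) and -0.55 on average (adjusted p = 0.217).

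Between the strains, 2 of the 20 lamellar body and secretion genes fell in SH rats against SD rats averaged over exposures, and 0 rose, against 0.819% of all probe sets lower and 0.729% higher. P2ry2, a receptor for extracellular ATP that triggers surfactant release, averaged 322 ± 32.7 in SH SO2, 337 ± 53.0 in SH air, 486 ± 79.3 in SD SO2 and 442 ± 50.4 in SD air (standard deviation, n = 4), a change of -0.47 (SE 0.105, adjusted p = 0.0230). Atp6v0a1, a subunit of the proton pump that acidifies vesicles, was at -0.43 (SE 0.102, adjusted p = 0.0322). All 8 SH arrays of P2ry2, from 269.9 to 381.5, lay below all 8 SD arrays, from 386.6 to 573.5, as in 0.153% of all probe sets. Both stayed under the threshold without the array labelled SD air replicate 2 (limma, adjusted p = 0.0224 for P2ry2 and 0.0133 for Atp6v0a1).

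The lists of lipid synthesis, transcription factors and clearance had 0 genes called between the strains on average, with Fasn, the fatty acid synthase, at -0.32 (adjusted p = 0.0643) and Nkx2-1 at -0.23 (adjusted p = 0.247). With the array labelled SD air replicate 2 left out, the retinoic acid receptor gene Rarb was called at -0.46 (adjusted p = 0.0446), and 0 of the other transcription factor genes. Of all probe sets, 2.54% were then called in either direction. Among markers of other lung cells, Cyp2f4, a cytochrome P450 of club cells, was the 1 of 5 club cell genes that differed on average, against 0.819% of all probe sets lower. In SO2 alone it was called as well (-1.26, limma, adjusted p = 0.000287), against 0.414% lower. It measured 651 ± 126 in SH SO2, 791 ± 86.4 in SH air, 1573 ± 168 in SD SO2 and 1457 ± 363 in SD air (standard deviation, n = 4), a change of -1.05 (SE 0.117, adjusted p = 2.90e-05), while the summed club cell signal ranged from 41686.9 to 45293.9 in SH SO2, 41611.1 to 44569.5 in SH air, 41378.8 to 57371.6 in SD SO2 and 44018.5 to 46794.0 in SD air. The summed type I cell signal overlapped in all 4 groups, between 58444.9 and 72523.7. The summed endothelial signal of 8 genes did not overlap between exposures in SD rats, at 24700.4 to 32043.8 in SD SO2 and 32713.8 to 34195.7 in SD air, and overlapped in SH rats, at 27763.5 to 31023.0 in SH SO2 and 28658.8 to 36867.1 in SH air. No share over like sums was computed, and the part of this sum in the members' values was not tested.

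Of the marker lists of type I (12 genes tested), ciliated (5), endothelial (8), smooth muscle (8), macrophage (6), neutrophil (6), T and NK (8) and heart or skeletal muscle cells (7), none had a called gene for SO2 in either strain or on average, and none for the strains on average. In SO2 alone, Tcap, a sarcomere protein gene, was higher in SH than in SD rats (1.08, adjusted p = 0.0402), against 0.405% of all probe sets called higher. With the array labelled SD air replicate 2 left out, 3 of 6 neutrophil genes were higher in SH rats on average, where 2.54% of all probe sets were called in either direction: S100a8 (1.24, adjusted p = 0.00395), Fcgr3a (0.58, adjusted p = 0.0314) and S100a9 (0.85, adjusted p = 0.0498). Summed neutrophil signals ranged from 3183.1 to 3898.7 in SH SO2, 2788.9 to 3891.2 in SH air, 1243.6 to 3094.1 in SD SO2 and 1673.2 to 4012.5 in SD air, and their part in the Sftpa1 difference was not tested.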

How the data were processed

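Lung RNA of 16 rats was hybridised to 16 Affymetrix arrays, in 4 groups of 4 labelled biological replicates. The authors deposited 1 linear intensity per probe set and array. GCOS was the software, per the submitters' processing notes, with no version or algorithm given in the sources used here. Trimmed mean intensities of 500.099 to 500.111 per array led to the deposited scaling being kept. The number of arrays limits the precision.

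Probe sets were named from GEO's platform annotation: of 15866, besides 57 control probe sets, 12783 had 1 symbol, 312 several and 2771 none here, and 12754 matched RefSeq (GRCr8), the source of coordinates and promoters. After log2(intensity + 16), the lowest 30% by mean were left out, which left 11106. Limma 3.58.1 in R 4.3.3 fitted 1 mean per group (lmFit, then eBayes with trend, 12 residual degrees of freedom), with Benjamini-Hochberg adjustment over all 11106. Correlations used permutation tests in scipy 1.17.1 under Python 3.11.15 (100000 resamples). On simulated data with known changes the fit was tested first. Figures used matplotlib 3.10.9.

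All members were named, with up to 3 genes of smallest p per list and the 5 genes most like the members. Genes with several probe sets were represented by the brightest. Lists also held markers of club, ciliated, type I, endothelial, smooth muscle, heart and immune cells. The members and lists were chosen with earlier results of these data known. Replicates were numbered within groups. Alternatives were offsets of 1 and 64, other filters (none, lowest 50%), quantile or median scaling, averaged probe sets, a replicate block, covariates for title number and array quality, array weights, other eBayes settings and each array left out.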

Additional observations from a re-analysis of the deposited data

Results flagged for a closer look

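Of 40 groups of 4 arrays (10 member probe sets in 4 groups), 2 held an array far from the other 3. Chance alone flags about 1 in 20 groups. Sftpa1 by 1369107_at measured 10815.9 on the array labelled SD air replicate 2, where the remaining SD air arrays had 7978.9 to 8301.9. Sftpc measured 45111.2 on SD SO2 replicate 4, where the remaining SD SO2 arrays had 25005.3 to 27182.1.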

How the results depend on the processing

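Outside the settings that leave out an array, 140 of the 143 counts and medians kept their value within the limits set, and 457 of the 478 results for single genes kept their direction and their side of the threshold. For a median the limit was a move under 0.1145. That exceeds the main medians for SO2 in SD rats (-0.0044), SO2 averaged over strains (-0.075) and SH against SD (-0.035), so a change of sign could count as kept. Counts for SO2 were 0 in the main fit, where 0% of all probe sets were called, and had little room to move. For SH against SD, the number of member probe sets called was 1 in SO2 with the replicate block, and 0 averaged over exposures with the title number as a covariate and with the probe sets of a gene averaged. The block rests on numbers that do not pair the samples: arrays of the same number had correlations of deviations from -0.43 to 0.15 (4 of 24 pairs over 0.1), and 1 of 16 arrays correlated best with its own number. It changed no other count. Sftpa1 by 1369107_at was at 0.37 (adjusted p = 0.0585) with the title number and at 0.41 in SO2 (adjusted p = 0.0398) with the block. Signs changed only for uncalled values, the largest of them Sftpc for SO2 in SH rats, at 0.19 in the main fit. Sftpc ranked 1 to 3 by signal on every array, and the cause of the sign changes was not tested. For SO2 in SH rats these were Slc34a2 (-0.044 with median centring, -0.013 with quality covariates), Sftpc (-0.026 with quantile scaling) and, with the title number, Sftpa1 by 1369107_at (0.032), Sftpb (-0.039) and Abca3 (0.048). For SO2 in SD rats they were Pla2g1b (0.067 with quality covariates) and Abca3 (0.028 with quantile scaling). For SH against SD they were Napsa (0.022) and Pla2g1b (0.0037) with quality covariates, Sftpb (0.032 quantile, 0.0010 centred, 0.051 title number, 0.026 quality, 0.026 array weights) and Sftpa1 by 1387460_at (0.061 quantile, 0.028 title number, 0.034 quality, 0.19 averaged over both probe sets). With each array left out in turn, the number called ranged from 0 to 1 for SH against SD in air and from 0 to 1 in SO2, both reaching 1 without the array labelled SD air replicate 2. Ranges that crossed 0 were, for SO2 in SH rats, -0.029 to 0.068 (Slc34a2), -0.093 to 0.016 (Sftpa1 by 1369107_at) and -0.12 to 0.058 (1387460_at). In SD rats they were -0.15 to 0.033 (Slc34a2), -0.10 to 0.045 (Sftpa1 by 1369107_at), -0.094 to 0.19 (Sftpc), -0.24 to 0.070 (Pla2g1b), -0.055 to 0.21 (Sftpb), -0.16 to 0.17 (Sftpd) and -0.098 to 0.062 (Abca3). For SH against SD they were -0.083 to 0.0075 (Slc34a2), -0.082 to 0.038 (Napsa), -0.14 to 0.0040 (Sftpc), -0.064 to 0.069 (Sftpb) and -0.067 to 0.033 (Sftpa1 by 1387460_at), and the difference of the Lpcat1 effects ranged from -0.060 to 0.45. The member medians for SO2 in SD rats (-0.098 to 0.0092) and for SH against SD (-0.082 to 0.0040) also crossed 0. With 4 arrays a group, changes under about 0.2 to 0.4 in one strain lay inside the intervals.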
